A study of Mus musculus with 24 samples.

Results

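A set of 10 transcription factors known from mesenchyme was followed through an array study of the embryonic urogenital sinus (UGS) of the mouse: Prrx1, Twist1, Twist2, Tcf21, Foxf1, Foxf2, Tbx3, Tbx18, Osr1 and Meis1. Every array probe that the scanner files name for 1 of these 10 genes was taken, which gave 19 of the 41174 probes on the array. Prrx1 had 6 probes, Tbx3, Tbx18, Osr1 and Meis1 had 2 each, and the others had 1. All 19 probes passed the filter on dim probes, which left 35477 probes and 24717 genes in all. The name Osr1 needed care. On the male and female arrays, 3 further probes carry it in an older annotation, in which it stood for an oxidative-stress kinase. They were left out, and the probes matched by their RefSeq accession to the odd-skipped gene were used on every array.

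The UGS is the endodermal tube, wrapped in mesenchyme, from which the prostate buds in males. Androgen acts through receptors in the mesenchyme, and mesenchymal signals then direct the epithelium to bud. Prrx1 is a paired-type homeobox factor of limb and facial mesenchyme, and Meis1 is a homeodomain cofactor that binds DNA with Pbx and Hox proteins. Twist1, Twist2 and Tcf21 are basic helix-loop-helix factors that pair with the E proteins Tcf3, Tcf4 and Tcf12. Foxf1 and Foxf2 are forkhead factors of the gut and lung mesenchyme that respond to hedgehog signals from epithelium. Tbx3 and Tbx18 are T-box factors, the latter known from the mesenchyme around the ureter, and Osr1 is a zinc-finger factor of the early kidney and bladder mesenchyme.

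All embryos were C57/Bl6J. In the 6 h and 12 h comparisons, pregnant females received 50 mg/kg dihydrotestosterone (DHT) or vehicle at 16 days post coitum (dpc), and the UGS of embryos labelled female was taken 6 or 12 h later. In the third comparison, unmanipulated males were set against their female littermates at 17.5 dpc. The labels call this a 48 h point, although 48 h after the injection time would fall later than 17.5 dpc. RNA of several embryos was pooled, so the spread between single embryos is not seen, and whole tissue was used after the accessory ducts had been dissected away. There were 4 pairs of pools at 6 h, 3 at 12 h and 5 of males against females, each measured on 2 arrays with exchanged dyes and counted as 1 replicate. The log2 ratio is DHT over vehicle or male over female, and the level of a pool is its mean log2 signal over the 2 dyes. Each comparison was hybridised on its own date, so a difference between comparisons cannot be told apart from that date.

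The labels were checked first. Median spot signals per array were 102.3 to 151.1 in Cy3 and 98.14 to 146.2 in Cy5, and no member spot was saturated. Vim, Col3a1, Pdgfra, Krt8, Cdh1, Epcam and Acta2 were well above background on all 24 arrays, so mesenchyme, epithelium and smooth muscle were present in every pool. The kidney and duct marker Pax2 was above background in at least 1 channel on 24 arrays, but only at low levels of 6.16 to 6.51. Bulk RNA does not show in which cells the 10 genes were expressed, so their mesenchymal label rests on background knowledge. The Y-linked genes were higher in males in 5 of 5 pairs. At 6 h their mean log2 ratio was -0.14 in replicate 1 but -1.27, -0.68 and -0.74 in replicates 2, 3 and 4, so the vehicle pools of those 3 pairs carried Y-linked RNA despite their female label. Values of the members at 6 h are therefore also given for replicate 1 alone. That pair was not balanced in cell type markers. Its mean log2 ratio was the most extreme of the 6 h pairs for epithelium (-0.543), smooth muscle (-0.287) and skeletal muscle (-0.41). The same held for mesenchyme (0.22) and neuron and Schwann cell markers (0.445), but not for duct and red blood cell markers.

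At 17.5 dpc, Prrx1, Twist2 and Meis1 were lower in males than in females, and Tcf21 was higher. In the fit over 24717 genes (limma, Benjamini-Hochberg adjusted p under 0.05), 4 of the 10 genes were called, beside 7.58% of all genes, and 6 had an unadjusted p under 0.05, beside 18.5% of all genes. That fit shared 1 estimate of spread per gene across the comparisons. With males over females fitted alone, 1 member (Prrx1) was called, beside 869 of 24717 genes. No member was called at 6 h, beside 1.63% of all genes, or at 12 h, beside 0.287%. At 6 h 4 members had an unadjusted p under 0.05, beside 14.3% of all genes, and at 12 h 1 did, beside 14.1%. The median log2 ratio of the 10 genes was -0.09 at 6 h, 0.0032 at 12 h and -0.05 for males over females, beside 0.0066, 0.0023 and 0.00076 over all genes. At 6 h 9 of the 10 means were below 0, and in males 5 were. With whole tissue, fewer cells of a type and less RNA per cell cannot be told apart.

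**Figure D1:**
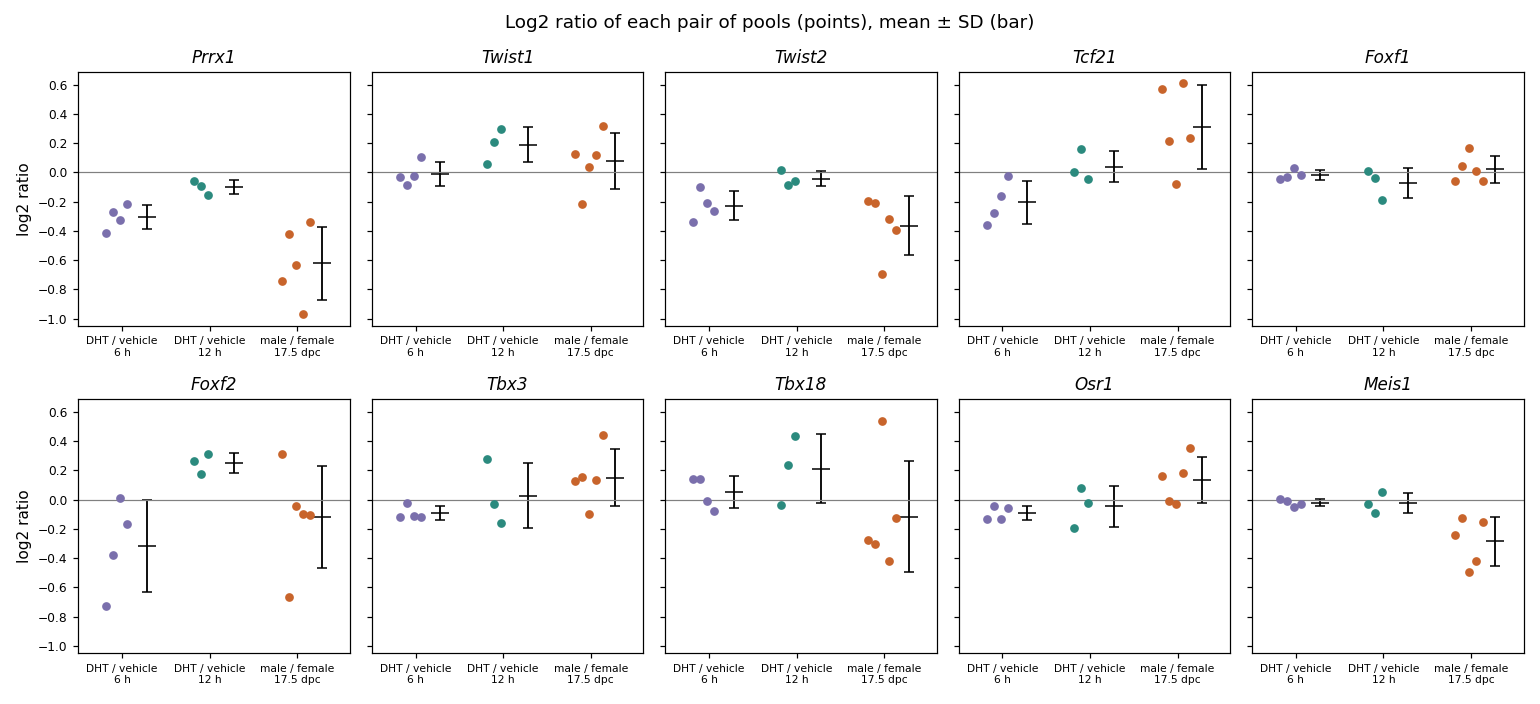
Log2 ratio (vertical axis) of each pair of pools for the 10 genes, with the brightest probe standing for each gene; points are the 4 pairs at 6 h, 3 at 12 h and 5 of males over females, and the bar gives the mean and SD. Prrx1 lies below 0 in all 12 pairs, while Tcf21 lies below 0 at 6 h and above 0 in 4 of 5 male pairs.

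Prrx1 showed the largest difference of the 10 genes at 17.5 dpc. Its level was 10.14, 9.76, 9.65, 9.71 and 9.65 in the female pools of replicates 1 to 5. In the male pools it was between 8.74 and 9.40, so the groups did not overlap, and the lowest male pool was that of replicate 4. The log2 ratios were -0.75, -0.42, -0.63, -0.97 and -0.34, a mean of -0.62 ± 0.25 (SD, n = 5), or 1.54-fold lower in males (SE 0.07, limma adjusted p = 8.48e-05). On this brightest probe, all 10 arrays of this comparison gave a ratio below 0 in either dye orientation. In replicate 5 the orientations differed, with -0.11 unswapped and -0.58 swapped. There the Prrx1 probes A_51_P209778 and A_52_P483713 gave 0.0075 and 0.09 unswapped, and -0.55 each swapped.

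In DHT-exposed females Prrx1 also had ratios below 0 in every pair, but the gene was not called. At 6 h the ratios were -0.41, -0.27, -0.33 and -0.22, with a mean of -0.31 ± 0.08 (SD, n = 4) and a limma adjusted p of 0.0697. The DHT pools, at 9.16 to 9.42, did not overlap with the vehicle pools, at 9.57 to 9.69. In replicate 1, whose pools lacked the Y-linked signal, the ratio was -0.41 (limma adjusted p = 0.48 for that 1 pair). At 12 h the ratios were -0.06, -0.09 and -0.15, with a mean of -0.10 ± 0.05 (SD, n = 3, limma adjusted p = 0.688). The male-to-female ratio was lower than the 12 h ratio by a called difference (-0.52, SE 0.11, limma adjusted p = 0.0396), which was lost under 13 of 23 other settings, among them without replicate 1, 2 or 3 at 12 h and without male and female replicate 1 or 3 (-0.49 to -0.55). Against the 6 h ratio the difference was -0.32 (SE 0.10, limma adjusted p = 0.0978).

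The 6 Prrx1 probes did not give 1 answer. The 3 probes on the RefSeq transcript NM_011127 were all called lower in males in the fit over single probes, at -0.62, -0.49 and -0.49 (limma adjusted p = 8.4e-05, 0.000141 and 0.000198). At 6 h these 3 gave -0.31, -0.28 and -0.25, and 1 of them was called (A_51_P209778, limma adjusted p = 0.047). At 12 h they gave -0.10, -0.17 and -0.19, and none was called. The other 3 probes lie on other transcript records. The probe on U03873, with levels of 6.16 to 6.91, was called lower at 12 h (-0.30 ± 0.04, SD, n = 3, limma adjusted p = 0.0202) and gave -0.10 in males (limma adjusted p = 0.116). The probe on AK038736 ran from -0.47 to 0.68 over the 5 male pairs, and the probe on AK029347 was well above background on only 11 of 24 arrays. Averaged over all 6 probes, the male-to-female ratio was -0.27 and still called.

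**Figure D2:**
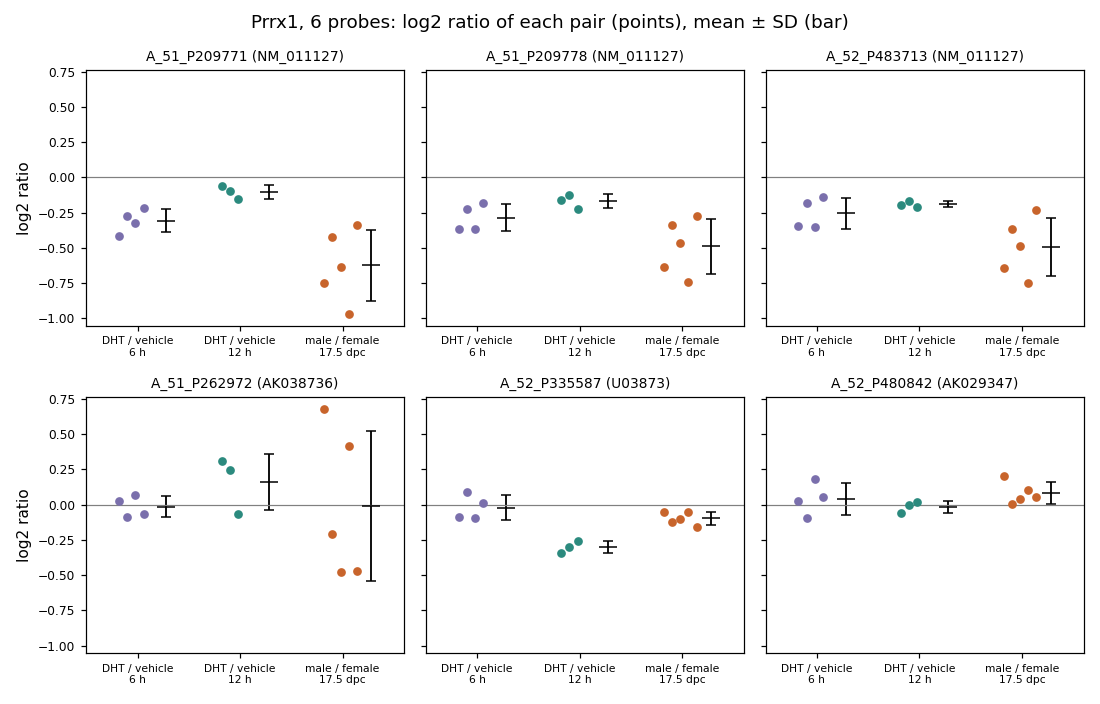
Log2 ratio (vertical axis) of each pair of pools on the 6 Prrx1 probes, each titled with its transcript record; points are pairs and the bar is the mean and SD. The 3 NM_011127 probes (top row) lie below 0 in all 12 pairs, and the other 3 (bottom row) have at least 1 pair above 0 each.

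Over all 19 member probes, 5 were called lower and 1 higher in males, beside 6.19% of all single probes. At 6 h 1 of 19 was called, beside 1.69%, and at 12 h 1 of 19, beside 0.276%. Probes of 1 gene share their target and are not independent.

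Twist2 was lower in males and its close relative Twist1 was not called. Twist2, known as a repressor of differentiation in dermal and other connective tissue cells, had a level of 9.55 to 10.07 in the female pools and 9.35 to 9.70 in the male pools, so the groups overlapped while every pair went the same way. The ratios were -0.20, -0.21, -0.69, -0.32 and -0.40, with a mean of -0.36 ± 0.20 (SD, n = 5), or 1.29-fold lower (limma adjusted p = 0.00192). Replicate 3 was the lowest. At 6 h Twist2 gave -0.34, -0.10, -0.21 and -0.26, below 0 in 4 of 4 pairs with a mean of -0.23 ± 0.10 (SD, n = 4), and was not called (limma adjusted p = 0.113). Replicate 1 alone gave -0.34 (limma adjusted p = 0.489). At 12 h the ratios were 0.02, -0.08 and -0.06.

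Twist1, a regulator of mesoderm and neural crest mesenchyme, gave 0.13, -0.22, 0.04, 0.12 and 0.32 in males, a mean of 0.08 ± 0.19 (SD, n = 5, limma adjusted p = 0.607). At 12 h its 3 ratios were 0.06, 0.21 and 0.29, and at 6 h its mean was -0.01 ± 0.08 (SD, n = 4), with -0.03 in replicate 1. The difference Twist1 minus Twist2 within a pair averaged 0.44 ± 0.31 in males (SD, n = 5), above 0 in 4 of 5 pairs. A two-sided exact sign-flip permutation test gave p = 0.125, where 0.0625 is the smallest p that 5 pairs allow. At 6 h the difference was 0.22 and at 12 h 0.23, above 0 in 4 of 4 and 3 of 3 pairs, with exact permutation p of 0.125 and 0.25, the smallest that 4 and 3 pairs allow. Over the 6 comparisons made of this kind the adjusted p was 0.25 or above.

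Tcf21, a helix-loop-helix factor of kidney, lung and gonad mesenchyme, was higher in males. Its level was 10.59 to 11.19 in the female pools and 10.97 to 11.69 in the male pools, which overlapped. The ratios were 0.57, 0.21, -0.08, 0.61 and 0.24, a mean of 0.31 ± 0.29 (SD, n = 5), or 1.24-fold higher (limma adjusted p = 0.0377). Replicate 3 was the only pair below 0. The call was the least firm of the 4: it was lost in 11 of 20 other settings, including without replicate 1, 2, 4 or 5 in turn (limma adjusted p = 0.0608 to 0.182), and the mean stayed above 0 in each. At 6 h the ratios were -0.36, -0.27, -0.16 and -0.02, a mean of -0.20 ± 0.15 (SD, n = 4, limma adjusted p = 0.34). Replicate 1 alone, without Y-linked signal, gave -0.36. At 12 h the mean was 0.04 ± 0.11 (SD, n = 3). The difference between the male-to-female ratio and the 6 h ratio was 0.51 (SE 0.12) and was called (limma adjusted p = 0.0255), but not under 10 of 25 other settings, among them without replicate 1, 2 or 3 at 6 h, without male and female replicate 4 (0.44 to 0.53) and with 6 h replicate 1 alone (0.67).

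Meis1 was lower in every male pool than in its female partner. Its level was 9.39, 9.20, 9.12, 9.05 and 9.13 in females and 9.15, 9.08, 8.62, 8.63 and 8.98 in males, so the groups overlapped although each pair went the same way. The ratios were -0.24, -0.12, -0.50, -0.42 and -0.15, with a mean of -0.29 ± 0.16 (SD, n = 5), or 1.22-fold lower (limma adjusted p = 0.00236). A second probe on the same transcript gave -0.28 ± 0.19 (SD, n = 5) and was not called alone (limma adjusted p = 0.0835). At 6 h the 4 ratios lay between -0.05 and 0.0030, the latter in replicate 1, and at 12 h the 3 ratios lay between -0.09 and 0.05. The male-to-female ratio was lower than the 6 h ratio by a called difference (-0.26, SE 0.07, limma adjusted p = 0.0479), which was lost under 20 of 25 other settings, among them without each replicate at 6 h, without male and female replicate 1, 3 or 4 (-0.21 to -0.28) and with 6 h replicate 1 alone (-0.29). Against the 12 h ratio the difference was also -0.26 and not called (limma adjusted p = 0.133).

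**Figure D3:**
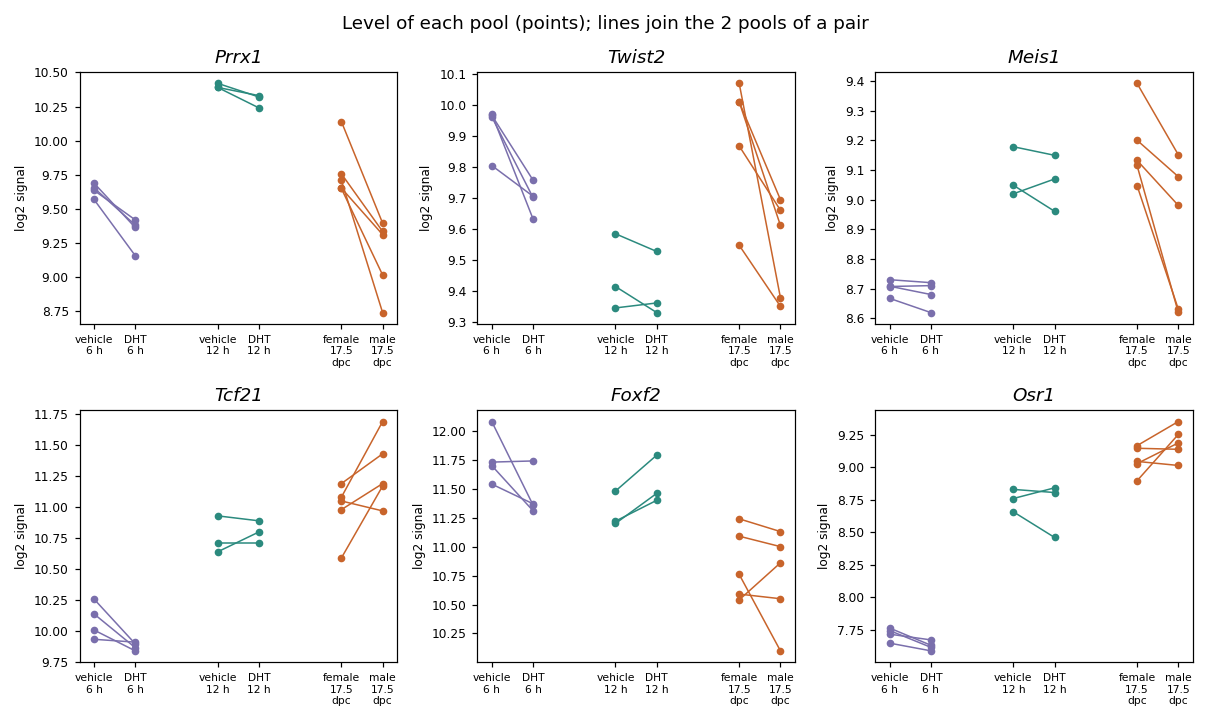
Level in log2 signal (vertical axes, each with its own range) of Prrx1, Twist2, Meis1, Tcf21, Foxf2 and Osr1 in every pool; points are pools and lines join the 2 pools hybridised together. All 5 lines of Prrx1, Twist2 and Meis1 go down from female to male.

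In differences between the comparisons, 2 of the 10 genes (Tcf21 and Meis1) were called for males over females against 6 h, beside 6.91% of all genes, and 1 (Prrx1) against 12 h, beside 1.65%. Between 12 h and 6 h no member was called, beside 0.113% of all genes, and 1 had an unadjusted p under 0.05, beside 14.4%. That gene was Foxf2, which gave -0.72, -0.38, 0.01 and -0.17 at 6 h and 0.27, 0.18 and 0.31 at 12 h. The difference was 0.57 (SE 0.19, limma adjusted p = 0.203).

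The forkhead pair was not called in any comparison. Foxf2 had a mean of -0.32 ± 0.32 at 6 h (SD, n = 4, limma adjusted p = 0.265), 0.25 ± 0.07 at 12 h (SD, n = 3, limma adjusted p = 0.484) and -0.12 ± 0.35 in males (SD, n = 5, limma adjusted p = 0.704). Its male-to-female ratios were 0.31, -0.66, -0.04, -0.10 and -0.11, so replicates 1 and 2 lay on opposite sides. At 6 h replicate 1 was the lowest at -0.72, and its level there was 12.08 in vehicle against 11.36 in DHT. Foxf1 stayed within -0.19 and 0.17 in all 12 pairs, on a probe whose levels of 6.11 to 6.67 lie near the low end of the range. Its means were -0.02 ± 0.03 at 6 h (-0.05 in replicate 1), -0.07 ± 0.10 at 12 h and 0.02 ± 0.09 in males. The difference Foxf1 minus Foxf2 averaged 0.30 at 6 h, -0.33 at 12 h and 0.14 in males, with two-sided exact permutation p of 0.125, 0.25 and 0.5625.

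The T-box genes were not called either. Tbx3, a repressor known from limb, mammary gland and genital development, gave 0.13, 0.15, -0.10, 0.13 and 0.44 in males, a mean of 0.15 ± 0.19 (SD, n = 5, limma adjusted p = 0.241). At 6 h 3 of its 4 ratios lay between -0.12 and -0.11 and replicate 2 gave -0.02, while replicate 1 alone gave -0.12. At 12 h the ratios were 0.28, -0.03 and -0.16. Tbx18 gave -0.28, -0.30, 0.53, -0.42 and -0.13 in males, with a mean of -0.12 ± 0.38 (SD, n = 5, limma adjusted p = 0.688). Replicate 3 alone lay above 0, also on the second probe, which gave 0.31 there and -0.01 to -0.20 in the others. Without that pair Tbx18 was called lower in males (-0.28, limma adjusted p = 0.0253). In the same pair the skeletal muscle markers had their highest mean log2 ratio, 1.30 beside -0.45 to 0.22 in the other 4 pairs. The red blood cell markers (1.16 beside -0.56 to 0.26) and the epithelial markers (0.51 beside 0.09 to 0.42) were also highest there. The part of these cells in the Tbx18 ratio was not tested. At 12 h Tbx18 gave -0.04, 0.24 and 0.44, and at 6 h its mean was 0.05 ± 0.11 (SD, n = 4), with 0.14 in replicate 1.

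Osr1 gave 0.16, -0.01, -0.03, 0.19 and 0.36 in males, a mean of 0.13 ± 0.16 (SD, n = 5, limma adjusted p = 0.185), and -0.09 ± 0.05 at 6 h (SD, n = 4), with -0.13 in replicate 1. Its second probe averaged 0.05 ± 0.17 in males. The level of Osr1 differed far more between the comparisons than within them. It was 7.63 ± 0.04 in the DHT and 7.72 ± 0.05 in the vehicle pools at 6 h. At 12 h it was 8.70 ± 0.21 and 8.75 ± 0.09, and at 17.5 dpc it was 9.19 ± 0.13 in males and 9.06 ± 0.11 in females. The second probe went from 7.28 ± 0.07 in vehicle at 6 h to 8.09 ± 0.02 in vehicle at 12 h and 8.17 ± 0.12 in females. Tcf21 had 10.09 ± 0.14, 10.76 ± 0.15 and 10.98 ± 0.23 in these control pools. For Tcf21 and the second Osr1 probe, the step from 12 h to 17.5 dpc was within the spread. Prrx1 was highest at 12 h (10.40 ± 0.02 in vehicle), and Twist2 was lowest there (9.45 ± 0.12), while Foxf2 was lowest at 17.5 dpc (10.84 ± 0.31 in females). Prrx1 on its brightest probe in females and in 6 h vehicle pools, and Twist2 in those same pools, differed by less than their spread. The RefSeq probes A_51_P209778 and A_52_P483713 of Prrx1 differed by more than their spread. They gave 8.401 ± 0.036 and 8.045 ± 0.040 in 6 h vehicle pools, against 9.088 ± 0.238 and 8.691 ± 0.252 in females. Age and hybridisation date cannot be told apart in these levels.

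The promoters of the 4 genes called in males are shown because 3 of them moved the same way and 1 the other way. Of the 10 genes, 7 have an entry in the promoter table from RefSeq (GRCm38.p6), and Foxf1, Tbx3 and Osr1 do not. Each sequence is the 250 bases before the gene's start, 5′ to 3′ on the gene's strand, with capitals for matches on either strand to GGGCGG (the SP1 box), CCAAT or TATAAA. Prrx1 lies at chr1:163313651-163313900 on the minus strand, Twist2 at chr1:91801211-91801460 on the plus strand, Meis1 at chr11:19018970-19019219 on the minus strand and Tcf21 at chr10:22820144-22820393 on the minus strand.
Prrx1: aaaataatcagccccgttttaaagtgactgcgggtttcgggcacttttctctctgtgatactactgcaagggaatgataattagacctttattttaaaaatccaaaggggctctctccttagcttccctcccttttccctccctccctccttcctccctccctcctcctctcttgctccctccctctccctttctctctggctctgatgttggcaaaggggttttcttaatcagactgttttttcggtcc
Twist2: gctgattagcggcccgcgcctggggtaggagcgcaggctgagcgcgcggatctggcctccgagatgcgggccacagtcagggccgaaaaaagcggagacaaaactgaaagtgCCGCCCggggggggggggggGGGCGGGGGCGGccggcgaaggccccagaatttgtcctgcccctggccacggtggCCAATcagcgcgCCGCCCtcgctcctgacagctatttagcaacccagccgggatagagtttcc
Meis1: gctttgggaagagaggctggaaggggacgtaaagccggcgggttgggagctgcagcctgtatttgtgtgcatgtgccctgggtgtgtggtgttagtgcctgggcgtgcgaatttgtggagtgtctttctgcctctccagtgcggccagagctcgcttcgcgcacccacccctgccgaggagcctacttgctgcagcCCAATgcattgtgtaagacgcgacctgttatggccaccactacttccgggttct
Tcf21: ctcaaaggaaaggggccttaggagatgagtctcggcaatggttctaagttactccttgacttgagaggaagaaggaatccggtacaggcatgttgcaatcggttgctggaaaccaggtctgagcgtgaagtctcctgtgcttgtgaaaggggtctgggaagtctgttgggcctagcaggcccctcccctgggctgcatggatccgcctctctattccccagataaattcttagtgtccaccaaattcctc

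Twist2 had 4 SP1 boxes, of which a pair adjoins, and 1 CCAAT box, and Meis1 had 1 CCAAT box. Prrx1 and Tcf21 had no match to any of the 3. The GC content was 68.8% for Twist2, 59.6% for Meis1, 52.4% for Tcf21 and 47.6% for Prrx1, beside a median of 52.4% over 32851 promoter windows of the same length. An SP1 box was present in 32.7% of those windows, a CCAAT box in 33.8% and a TATAAA match in 12.4%. None of the 7 windows held AGAACA, the hexamer that the androgen receptor recognises, on either strand, beside 16.1% of all windows. These counts describe letters in a short window and say nothing of binding.

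The relatives and partners of the 10 genes, a list of 28 of which 27 were measured, included members that moved in males in both directions. In males 3 were called higher and 5 lower, beside the 7.58% of all genes called in either direction, with a median log2 ratio of 0.0060. Scx, a helix-loop-helix factor of tendon, was lower by the most (-0.82 ± 0.32, SD, n = 5, limma adjusted p = 7.9e-05, below 0 in 5 of 5 pairs). The E protein Tcf4 was lower (-0.32 ± 0.11, SD, n = 5, limma adjusted p = 0.000404), while Tcf3 and Tcf12 gave -0.01 and -0.14 and were not called. The sister gene Prrx2 was lower (-0.25, limma adjusted p = 0.0118), as was Meis2 (-0.21, limma adjusted p = 0.019). Pbx3 was lower (-0.14, limma adjusted p = 0.0393) and Pbx2 gave 0.01. Tcf15 (0.42) and the forkhead gene Foxc2 (0.24) were higher, each in 5 of 5 pairs. At 6 h 1 relative was called, Tcf3, which was lower under DHT (-0.31 ± 0.13, SD, n = 4, limma adjusted p = 0.0115). In replicate 1 alone, without the Y-linked signal, Tcf3 gave -0.47 and was not called (limma adjusted p = 0.155 for that 1 pair). None was called at 12 h, where 5 had an unadjusted p under 0.05, beside 14.1% of all genes.

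Markers of several cell types also differed in these comparisons, not always in the direction of the members. In males, 7 of 15 mesenchyme and fibroblast markers were called lower and 14 lay below 0, among them Col1a1 (-0.67), Col5a1 (-0.43) and Fbln1 (-0.52), with a list median of -0.35. The mean of that list per pair was -0.24, -0.03, -0.52, -0.71 and -0.09 in replicates 1 to 5. Vim and Pdgfra gave -0.10 and -0.07 and were not called. Pdgfrb (-0.33, limma adjusted p = 0.0181) and Col3a1 (-0.43, limma adjusted p = 0.0401) were among the 7 called lower. Of 21 epithelial markers, 11 were called higher and 1 lower in males, with pair means from 0.09 to 0.51, and 4 of 10 smooth muscle markers were called lower, with pair means from -0.55 to -0.04. The duct markers had pair means from -0.44 to -0.15 and a list median of -0.05. These means rested mainly on Amhr2 (-1.08) and Wnt7a (-0.77), the 2 of 6 that were called. Pax2, Pax8, Lhx1 and Emx2 gave -0.02, -0.05, -0.05 and 0.08. At 6 h the epithelial markers lay below 0 in 21 of 21 (pair means -0.54, -0.44, -0.09 and -0.02) and 12 of 15 mesenchyme markers lay above 0, while 9 of the 10 members lay below 0. At 12 h 20 of 21 epithelial markers lay above 0. The immune cell markers lay above 0 in 7 of 7 at 6 h, with 1 called higher and pair means from 0.13 to 0.30. In males 0 of 7 lay above 0, with 2 called lower and pair means from -0.29 to -0.01. The part of these lists in the members' ratios was not tested beyond the covariates that follow.

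With the mean of the mesenchyme and fibroblast markers as a covariate, Prrx1 remained called in males (-0.43) and Twist2 (-0.27), Meis1 (-0.13) and Tcf21 (0.22) were not. With the epithelial mean Prrx1 remained called (-0.61), while Twist2 (-0.29), Meis1 (-0.24) and Tcf21 (0.31) were not. With the smooth muscle mean Prrx1 (-0.48) and Twist2 (-0.38) remained called, while Meis1 (-0.27) and Tcf21 (0.22) were not. With the duct mean none of the 4 was called, with Prrx1 at -0.85 (limma adjusted p = 0.0665), Twist2 at -0.39, Meis1 at -0.41 and Tcf21 at 0.16. In males the duct mean rested mainly on Amhr2 and Wnt7a, and whether it follows duct content was not tested. Most calls over all genes in males were lost in these fits as well. Of the 1873 as reported, the count became 454 with the mesenchyme mean and 748 with the epithelial mean. It was 596 with the smooth muscle mean and 79 with the duct mean. The covariates for mesenchyme, ducts and smooth muscle were chosen after seeing the data.

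**Figure D4:**
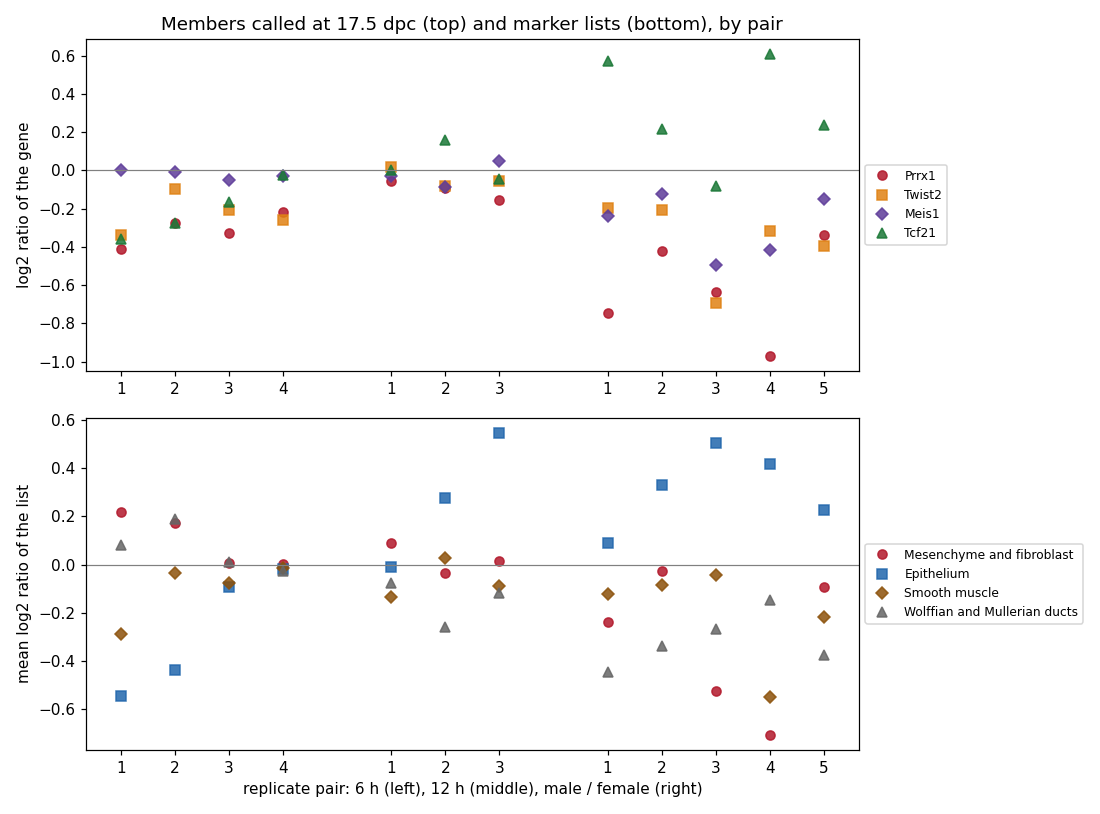
Log2 ratio of the 4 genes called at 17.5 dpc (top) and mean log2 ratio of 4 marker lists (bottom) for each of the 12 pairs, with replicate pairs on the horizontal axis in the order 6 h, 12 h and male over female. Prrx1, Meis1 and the mesenchyme list are all below 0 in the 5 male pairs, with Prrx1 lowest in replicate 4, then 1, and the mesenchyme list lowest in 4, then 3. The epithelial list is above 0 in all 5 male pairs.

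**Figure D5:**
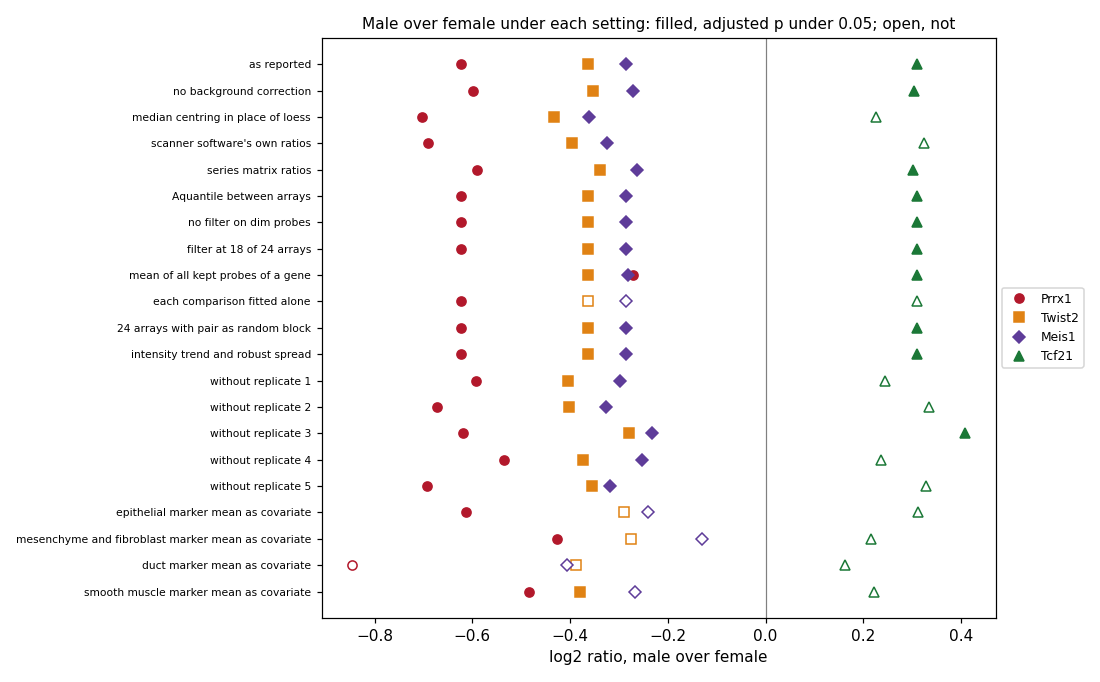
Male-to-female log2 ratio (horizontal axis) of Prrx1, Twist2, Meis1 and Tcf21 as reported and under 20 other settings; filled symbols have an adjusted p under 0.05 and open symbols do not. Each gene stays on 1 side of 0 throughout, and Tcf21 has the most open symbols, 11 of 20.

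Across the 12 pairs, the genes whose ratios ran most like each member were taken from 5796 genes with an SD of at least 0.15 among the pairs. For Prrx1 these were Ldb2 and Pfkfb3 (Pearson r = 0.937 and 0.936), for Meis1 Pmp22 and P4ha2 (r = 0.951 and 0.947), for Twist2 Nr2f1 and Fgd4 (r = 0.902 and 0.900), and for Tcf21 Efna4 and Sphk2 (r = 0.952 and 0.917). Over all members the 20 values lay between 0.796 and 0.952. Among the members themselves, the highest value was that of Prrx1 with Meis1 (r = 0.805) and the lowest that of Tcf21 with Tbx18 (r = -0.656). The 12 pairs share arrays between genes and hybridisation dates within comparisons, and these values are descriptions that carry no test.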

How the data were processed

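RNA of 24 pools in 12 pairs was measured on 24 2-colour arrays. The authors' deposited scanner output gives, for every spot, its intensity and local background in either dye and a log10 ratio of Cy5 over Cy3 (Agilent Feature Extraction, version 7.5.1 by the headers). The deposited series matrix holds log2 ratios per probe and array (column medians -0.0112 to 0.0108). Set against the scanner ratios turned to one direction, its columns gave r of 0.544 to 0.805, so they were taken as already turned. How the authors scaled and centred them is not stated, and they served as an alternative. No genome build is given in the sources used here.

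Background was removed by normexp with an offset of 50, followed by loess within arrays (limma 3.58.1 under R 4.3.3, with data.table version 1.17.8 for reading). Spots that the software called outliers were set to missing. Spots of a probe and then the 2 dye-swapped arrays of a pair were averaged. Probes well above background in at least 1 channel on at least 6 of 24 arrays were kept, and the brightest probe stood for a gene. The 12 pairs were fitted together with 1 coefficient per comparison, and two-sided moderated p-values got a Benjamini-Hochberg adjustment across 24717 genes (threshold 0.05). Levels were taken after loess and Aquantile. SE is that of the fit, whose spread is shared by all comparisons. The SE and p-value therefore do not measure the SD of a single comparison printed beside them. For Prrx1 that SD was 0.25 in males, 0.08 at 6 h and 0.05 at 12 h. On simulated data for the male and female comparison, 93 of 100 genes changed by 0.5 and 99 of 100 changed by 1 (log2) were recovered among 24717 genes, with 16 false calls. The simulation used independent noise with 1 spread per gene in all comparisons, which the real pairs need not have. It did not cover changes as small as those of Twist2 (-0.36), Meis1 (-0.29) and Tcf21 (0.31).

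Replicates are separate pools, and the number of arrays limits the precision. Replicate numbers of different comparisons name different embryos. The deviations of same-numbered pairs correlated at -0.068 to 0.287. The numbers were not used as pairs in the reported fit, and served only as a block in an alternative. The alternatives covered background correction, normalisation, the authors' ratios, the filter, the probe rule, the model and left-out pairs. The members and the gene lists were chosen with earlier results of these data known. The text names all 10 members, relatives that were called or share their family (1 is not reported here), and the 2 genes with the highest r to each member.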

Additional observations from a re-analysis of the deposited data

Results flagged for a closer look

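Of 38 groups of member probes and pairs examined for a sample far from the others, 1 stood out, and chance gives about 1 in 20. It was Tbx3 at 6 h, where replicate 2 gave -0.021 while the nearest of the other 3 pairs gave -0.11, a gap of 0.935 of the whole range. The whole range is small, and the dim second Tbx3 probe gave 0.13 in that pair.

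A difference between comparisons was called for 3 members by a test of the difference itself. Over all genes 6.91% were called for males against 6 h and 1.65% against 12 h. The call was lost for Prrx1 in 13 of 23 other settings, for Tcf21 in 10 of 25 and for Meis1 in 20 of 25. Prrx1 was lower in the male-to-female ratio than in the 12 h ratio by a difference of -0.52. For Tcf21 the male-to-female ratio was higher than the 6 h ratio by 0.51, and for Meis1 it was lower than the 6 h ratio, at -0.26. Comparison, hybridisation date, age and the kind of contrast (exposure or sex) cannot be told apart in these differences.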

How the results depend on the processing

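Prrx1 kept its call in males in 19 of 20 other settings, Twist2 in 16, Meis1 in 15 and Tcf21 in 9, and none of these 4 changed sign there. The count of members called in males was 4 as reported, 3 to 5 with each pair left out in turn, 1 (Prrx1) with each comparison fitted alone, 1 with the epithelial covariate, 1 with the mesenchyme covariate, 2 with the smooth muscle covariate and 0 with the duct covariate. Over all genes the last 5 settings gave 869, 748, 454, 596 and 79 calls in that order, beside 1873 as reported. At 6 h the count of members was 0 as reported, 1 with the series matrix ratios, 2 with the 24 arrays and pairs as a random block, and 1 with the mesenchyme covariate. Over all genes the series matrix ratios gave 701 calls at 6 h and the mesenchyme covariate 334, beside 403 as reported. In the random block fit the correlation within pairs was estimated at -0.09. The dye-swapped arrays of a pair thus counted about as much as separate replicates. Over all genes that fit called 1318 at 6 h and 2715 in males, the most of any setting. The replicate block took replicate numbers as blocks across comparisons, although these name different embryos. With it, the count of members for males against 6 h was 2, namely Prrx1 and Tcf21 in place of the reported Meis1 and Tcf21. The count against 12 h was 0. Over all genes these counts were 1683 and 185, beside 1709 and 408 as reported. For males against 6 h the count of members was 2 as reported. It was 1 without background correction, with median centring, with the series matrix, without the filter, with the mean of all probes and with the robust trend. It was 0 with the scanner's own ratios and with each of the 4 covariates, 5 with the random block, and 0 to 3 with a pair left out. Over all genes, the settings with 1 member gave 815 to 1962 calls, beside 1709 as reported. The scanner's own ratios gave 1110, the random block 2784 and the left-out pairs 860 to 1817. With the epithelial, mesenchyme, duct and smooth muscle covariates the all-gene counts were 163, 234, 17 and 1409. For males against 12 h the count of members was 1 as reported, 3 with the random block, and 0 to 1 with a pair left out. It was 0 with median centring, the scanner's own ratios, the mean of all probes, the robust trend and the mesenchyme, duct and smooth muscle covariates. Over all genes these last settings gave 87 to 384 calls, beside 408 as reported. The random block gave 921 and the left-out pairs 135 to 428. Of the 30 member means, 12 changed sign in at least 1 setting, none of them called and each within 0.12 of 0 as reported. Those that moved by more than the spread between replicates were Twist2 at 12 h (0.013 with median centring, 0.022 with the epithelial covariate, beside -0.04) and Meis1 at 6 h (0.0030 in replicate 1 alone, 0.0037 with the duct covariate, beside -0.02). The cause was not tested. All-gene counts ran from 1 to 1318 at 6 h (403 as reported), 0 to 359 at 12 h (71) and 79 to 2715 in males (1873), with 19 at 6 h without replicate 1, 13 without replicate 2, and 0 at 12 h without any 1 replicate. Dim probes such as that of Foxf1, and pools of unstated size, limit what can be seen.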
